A study of Mus musculus with 28 samples.

Results

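Bicarbonate, protons and chloride cross the membranes of astrocytes and neurons on a small set of carriers, and 7 of their genes were followed through all the libraries of this series. They were Slc4a4, Slc4a8 and Slc4a10 for sodium-coupled bicarbonate transport, Slc12a2, Slc12a4 and Slc12a5 for cation-chloride cotransport, and Car2 for a cytosolic carbonic anhydrase. The genes were taken by symbol and matched to their Ensembl identifiers, and they were chosen with earlier results of these data known. Counts of members called, beside the share of all genes, are therefore a description. All 7 were found among the 53342 gene identifiers of the count tables and passed the filter on low counts in every comparison.

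As background, SLC4 carriers such as the Slc4a4 product NBCe1 move sodium together with bicarbonate and thereby couple the sodium gradient to the pH of the cell and of the extracellular space. In the SLC12 family, NKCC1 (Slc12a2) loads cells with sodium, potassium and chloride, whereas the potassium-chloride cotransporters KCC1 (Slc12a4) and KCC2 (Slc12a5) let chloride out, and KCC2 is known as the neuronal carrier that keeps chloride low for inhibitory transmission. Carbonic anhydrase II (Car2) interconverts carbon dioxide and bicarbonate and is known in the brain from oligodendrocytes, astrocytes and choroid plexus.

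The series compared conditional knockout mice (cKO), in which the mGFAP-Cre driver acts on loxP/loxP alleles of 1 gene, with sex-matched littermate controls (Ctrl) that were loxP/loxP or loxP/+ for the same gene and are listed without the driver. Bulk RNA-Seq was done on cerebral cortex at P24 (4 cKO and 4 Ctrl mice) and at P17 (4 cKO and 4 Ctrl mice). TRAP-Seq was done on P24 cortex of 3 cKO and 3 Ctrl mice that expressed the ribosomal fusion protein EGFP/Rpl10a in a Cre-dependent manner through mGFAP-Cre. As this expression needs Cre, the TRAP-Seq Ctrl mice would have carried the driver, and their full genotype is not settled by the sources used here. Bulk and TRAP-Seq effects may therefore rest on controls that differ in the driver. RNA pulled down with GFP antibodies (IP) and RNA from the spun supernatant of the homogenate before the pulldown (Input) were sequenced from the same mouse. Each library came from 1 mouse. The driver rests on a Gfap promoter, and Gfap itself was upregulated in cKO mice, with log2 fold changes of 1.03 in P17 bulk, 2.51 in P24 bulk and 0.76 in IP.

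The bulk libraries held 8855488 to 14575306 counts on genes and the TRAP-Seq libraries 18433087 to 27242445, and the lowest count of any of the 7 genes in any library was 98. Values are CPM, a gene's counts relative to the TMM-scaled total of its library. Adjusted p values are from edgeR's two-sided quasi-likelihood test with Benjamini-Hochberg adjustment over all genes tested, a gene is called at an adjusted p under 0.05, and log2 fold changes are given ± SE. All 8 astrocyte markers were higher in IP than in Input of Ctrl mice (log2 fold changes from 2.40 to 4.62) and the 7 neuronal and 6 microglial markers called were lower. The P24 bulk library of cKO replicate 1 and the Input library of cKO replicate 1 stood apart from their replicates over all genes. In P24 bulk, the chi-square of the counts over its degrees of freedom was 12.7 to 15.8 in pairs with this library. It was 3.46 to 5.25 in the other cKO pairs. In Input it was 85.2 and 89.8 in pairs with cKO replicate 1 and 8.99 in the other cKO pair. Some of the results that rest on these libraries are given with and without them.

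In GRCm38, Slc4a4 (ENSMUSG00000060961) lies at chr5:88886818-89239653 on the plus strand, Slc4a8 (ENSMUSG00000023032) at chr15:100761747-100823968 (plus) and Slc4a10 (ENSMUSG00000026904) at chr2:62046462-62326730 (plus). Slc12a5 (ENSMUSG00000017740) lies at chr2:164960802-164999731 (plus), Slc12a4 (ENSMUSG00000017765) at chr8:105943590-105966097 (minus) and Car2 (ENSMUSG00000027562) at chr3:14886273-14900770 (plus). Only Slc12a4 overlaps other annotated genes, the antisense gene Gm16156 and the microRNA gene Mir7074. The strand setting of the counting is not given in the sources used here, so reads of Slc12a4 and Gm16156 cannot be told apart.

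The start regions of Slc4a4 and Slc12a4 are shown because these genes were called in opposite directions in P24 cortex. RefSeq (GRCm38.p6) gives 2 start regions for Slc4a4, a first at chr5:88887010-88887309 and a second, further along the gene, at chr5:89027716-89028015, and 1 for Slc12a4 at chr8:105966066-105966365. Each covers 250 bases before and 50 after the start, in the direction of the gene, with GC boxes (GGGCGG on either strand) in capitals.
Slc4a4 first start: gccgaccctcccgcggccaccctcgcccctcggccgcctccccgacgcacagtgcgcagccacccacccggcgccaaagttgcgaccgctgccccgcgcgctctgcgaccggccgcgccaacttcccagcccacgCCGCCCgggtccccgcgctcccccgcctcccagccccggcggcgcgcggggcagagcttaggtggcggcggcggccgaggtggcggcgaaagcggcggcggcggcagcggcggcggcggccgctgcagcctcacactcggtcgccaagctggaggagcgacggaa
Slc4a4 second start: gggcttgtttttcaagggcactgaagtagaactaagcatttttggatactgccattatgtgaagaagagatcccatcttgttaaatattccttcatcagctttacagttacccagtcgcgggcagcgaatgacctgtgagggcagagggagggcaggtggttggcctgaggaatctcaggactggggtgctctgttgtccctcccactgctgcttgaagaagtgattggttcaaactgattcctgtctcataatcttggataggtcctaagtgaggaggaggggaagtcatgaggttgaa
Slc12a4 start: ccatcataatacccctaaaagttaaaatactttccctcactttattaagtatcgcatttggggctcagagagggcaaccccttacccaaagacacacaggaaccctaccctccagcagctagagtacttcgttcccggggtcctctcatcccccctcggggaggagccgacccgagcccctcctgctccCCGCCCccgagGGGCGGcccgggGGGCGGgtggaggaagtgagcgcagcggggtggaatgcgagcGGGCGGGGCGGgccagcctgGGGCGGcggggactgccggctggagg
The first Slc4a4 region held 50 CG dinucleotides and 1 GC box, and its second region 3 CG dinucleotides and no GC box. The region of Slc12a4 held 20 CG dinucleotides and 6 GC box matches, of which 2 share a base. Over the 32851 start regions in the table, the median was 7 CG dinucleotides and 35.7% held a GC box, and the matches are a description of these letters alone. Of the other genes, Slc4a8 had 1 start region (21 CG dinucleotides), Slc12a5 had 2 (21 each) and Slc4a10 had 2 (4 and 2). Car2, which was also called in P24 cortex, and Slc12a2 had no start region in the table. The counts are sums over whole genes and do not separate transcripts by their start.

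**Figure D1:**
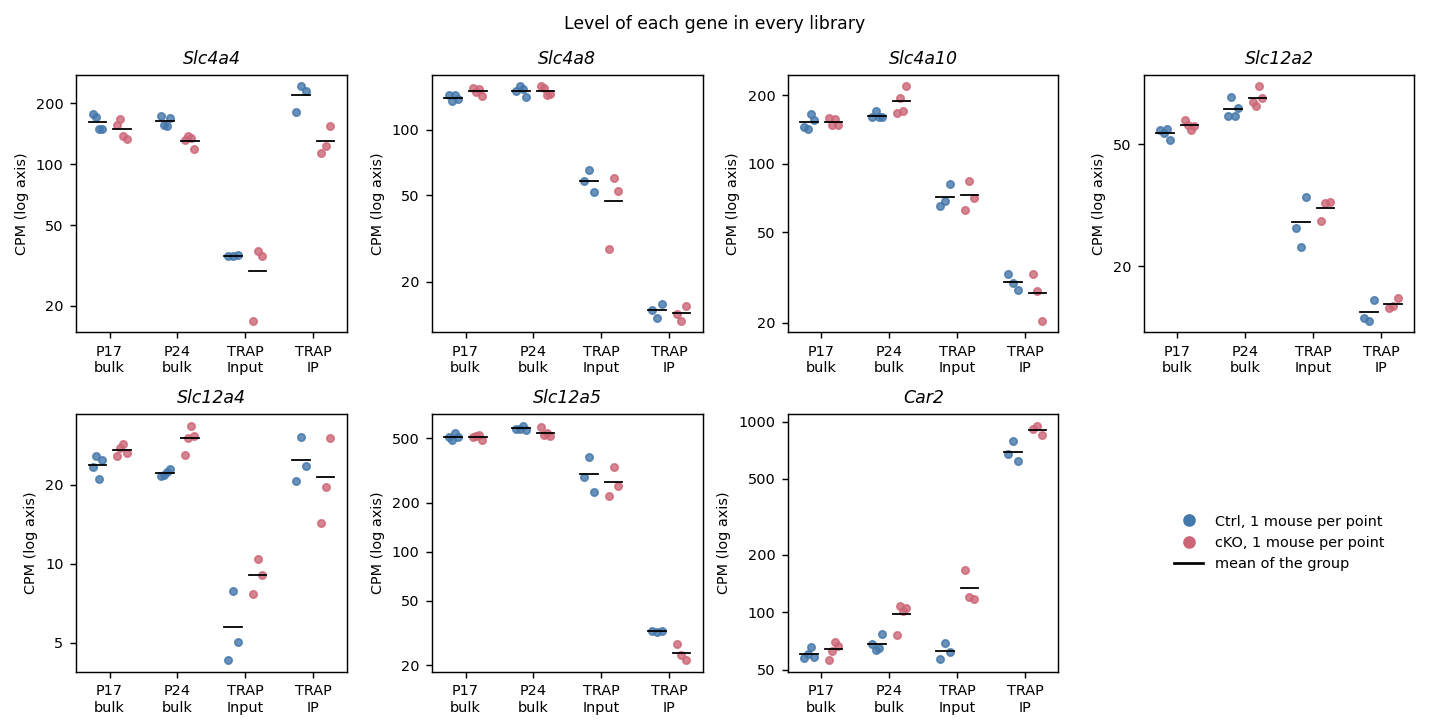
Level of each of the 7 genes in CPM (log axis) in the 28 libraries, by assay on the horizontal axis, with 1 point per mouse and a bar at the mean of each group. Slc4a4, Slc12a4 and Car2 stand higher in IP than in Input, and Slc4a8, Slc4a10, Slc12a2 and Slc12a5 stand lower.

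Per kilobase of exonic sequence, Slc12a5 was the most abundant of the 7 genes in P24 bulk cortex of Ctrl mice, at 77.3 ± 2.14 CPM per kilobase (mean ± SD, n = 4). Car2 at 28.2 ± 2.39 and Slc4a10 at 25.3 ± 0.849 CPM per kilobase came next and lay close to each other, followed by Slc4a4 at 15.1 ± 0.872 and Slc4a8 at 11.6 ± 0.538. The lowest levels were those of Slc12a2 at 5.97 ± 0.408 and Slc12a4 at 5.18 ± 0.146 CPM per kilobase. At P17 the order in Ctrl mice was led by the same gene, Slc12a5 at 68.6 ± 2.70, and Car2 (25.0 ± 1.47) and Slc4a10 (23.7 ± 1.63) again lay within their spread of each other, as did Slc12a4 (5.55 ± 0.469) and Slc12a2 (4.99 ± 0.183).

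In the IP fraction of Ctrl mice the order was a different one. Car2 led at 287 ± 37.2 CPM per kilobase (mean ± SD, n = 3), ahead of Slc4a4 at 20.2 ± 2.99. Slc12a4 at 5.80 ± 1.16, Slc4a10 at 4.69 ± 0.389 and Slc12a5 at 4.36 ± 0.0457 followed, with Slc12a4 within its spread of Slc4a10. Slc12a2 at 1.30 ± 0.112 and Slc4a8 at 1.13 ± 0.0826 CPM per kilobase were lowest and lay close to each other.

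IP against Input asks which of these messages were on the tagged ribosomes. In Ctrl mice all 7 genes were called, against 71.0% of the 24385 genes tested, and 3 were higher and 4 lower in IP. The 3 enriched genes were the electrogenic bicarbonate cotransporter Slc4a4, the potassium-chloride cotransporter Slc12a4 and Car2, and the 4 depleted genes were Slc4a8, Slc4a10, Slc12a2 and Slc12a5. In cKO mice the same 7 genes were called in the same directions, against 56.3% of 24011 genes, and every alternative setting kept all 7 calls in both genotypes. In Ctrl mice the astrocyte markers had a median sum of 1072 CPM in Input and 3971 CPM in P24 bulk, scaled within each table. Mean CPM of Slc4a4 in Ctrl mice were 219 in IP, 35.3 in Input and 163 in P24 bulk. For Slc12a4 they were 24.8, 5.72 and 22.2, and for Car2 696, 62.8 and 68.4. Ratios of IP to Input depend on this Input level, whose cause was not tested.

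Slc4a4 had log2 ratios of IP to Input of 2.37, 2.78 and 2.70 in the 3 Ctrl mice and 2.75, 1.72 and 2.13 in the cKO mice, with fitted log2 fold changes of 2.62 ± 0.12 and 2.10 ± 0.31. The highest cKO ratio, 2.75, was that of replicate 1, whose Input library stood apart. Over the alternatives the cKO log2 fold change lay between 1.83 and 2.30. For Car2, the ratios were 3.56, 3.52 and 3.31 in Ctrl mice and 2.46, 2.99 and 2.87 in cKO mice, with fitted log2 fold changes of 3.46 ± 0.13 and 2.74 ± 0.18. Every cKO mouse lay below every Ctrl mouse in this measure of Car2. For Slc12a4, the ratios were 2.27, 1.95 and 2.22 and 0.89, 0.90 and 1.73, with fitted log2 fold changes of 2.12 ± 0.21 and 1.22 ± 0.28, and the genotypes again did not overlap.

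Among the depleted genes, Slc12a5 was furthest below its Input level, at log2 ratios of -3.16, -3.58 and -2.84 in Ctrl mice and -3.02, -3.86 and -3.55 in cKO mice. This neuronal cotransporter kept 0.107 of its Input level in the IP of Ctrl mice, as a ratio of mean CPM. Slc4a8, which encodes the sodium-driven chloride-bicarbonate exchanger NDCBE, had ratios of -1.96, -2.26 and -1.71 and -0.98, -2.18 and -1.76. The value of -0.98 was that of cKO replicate 1, whose Input library stood apart. Slc4a10, whose product NBCn2 carries sodium and bicarbonate in neurons and choroid plexus, had -0.99, -1.20 and -1.55 and -0.93, -1.61 and -1.80. Slc12a2 was the least depleted, at -0.97, -0.80 and -1.12 and -0.94, -1.12 and -1.04, and its 6 mice lay within a narrow band.

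**Figure D2:**
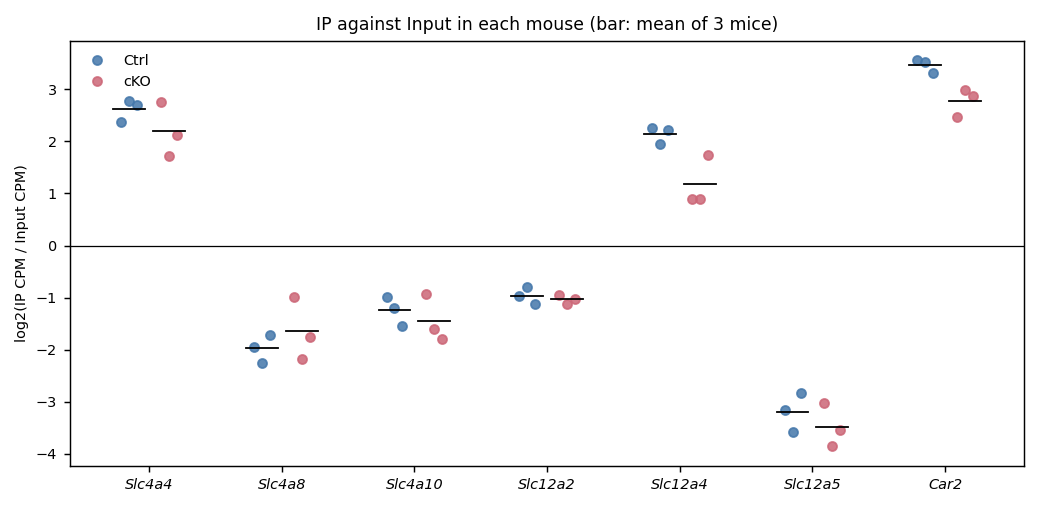
Log2 ratio of IP CPM to Input CPM of each gene in each of the 6 TRAP-Seq mice, with a bar at the mean of 3 mice. Slc4a4, Slc12a4 and Car2 are above 0 in all 6 mice and the other 4 genes below 0, and for Slc12a4 and Car2 the cKO mice lie below the Ctrl mice.

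The fraction-by-genotype interaction asks whether the IP-to-Input ratio differed between cKO and Ctrl mice. None of the 7 genes was called, against 0.0582% of the 25768 genes tested (15 genes, or 6 with the mouse as a block, again none of the 7), with log2 differences of -0.72 ± 0.22 for Car2 (adjusted p = 0.286), -0.89 ± 0.38 for Slc12a4 (adjusted p = 0.523) and -0.50 ± 0.33 for Slc4a4 (adjusted p = 0.741). Without the Input library of cKO replicate 1 these differences were -0.54 (adjusted p = 0.0995), -1.002 (adjusted p = 0.194) and -0.79 (adjusted p = 0.0512), again none called. At an unadjusted p under 0.05 there were 2 of the 7, beside 2252 of the 25768 genes tested. DESeq2 and the likelihood ratio test called none of the 7, with smallest adjusted p values of 0.0808 and 0.162. The 8 astrocyte markers had log2 differences from -1.01 to -0.61 in this comparison, none called, so that the enrichment of astrocyte messages over Input had a median log2 fold change of 3.69 in Ctrl and 2.84 in cKO mice. Their part in the values of Slc12a4 and Car2 was not tested.

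cKO against Ctrl asks how these genes differed between the genotypes. In P24 bulk cortex 3 of the 7 were called, against 1.72% of the 22495 genes tested, with Slc12a4 and Car2 upregulated and Slc4a4 downregulated. At P17 none was called, against 0.0943% of 21201 genes (20 genes, or 109 with the replicate number as a block, again none of the 7). An unadjusted p under 0.05 was reached by 1 of the 7 (Slc12a4), beside 847 of all genes tested. DESeq2 and the likelihood ratio test called none of the 7. In the TRAP IP at P24 3 were called, against 20.0% of 23864 genes, with Car2 upregulated and Slc4a4 and Slc12a5 downregulated. In the TRAP Input none was called, against 0.109% of 23828 genes. An unadjusted p under 0.05 was reached by 2 (Slc12a4 and Car2), beside 960 of all genes tested. DESeq2 and the likelihood ratio test each called 1 of the 7 (Car2). The median log2 fold change of the 7 genes was 0.12 in P24 bulk, 0.08 in P17 bulk, -0.16 in IP and 0.02 in Input, beside a median between -0.01 and 0.01 over all genes tested in each.

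**Figure D3:**
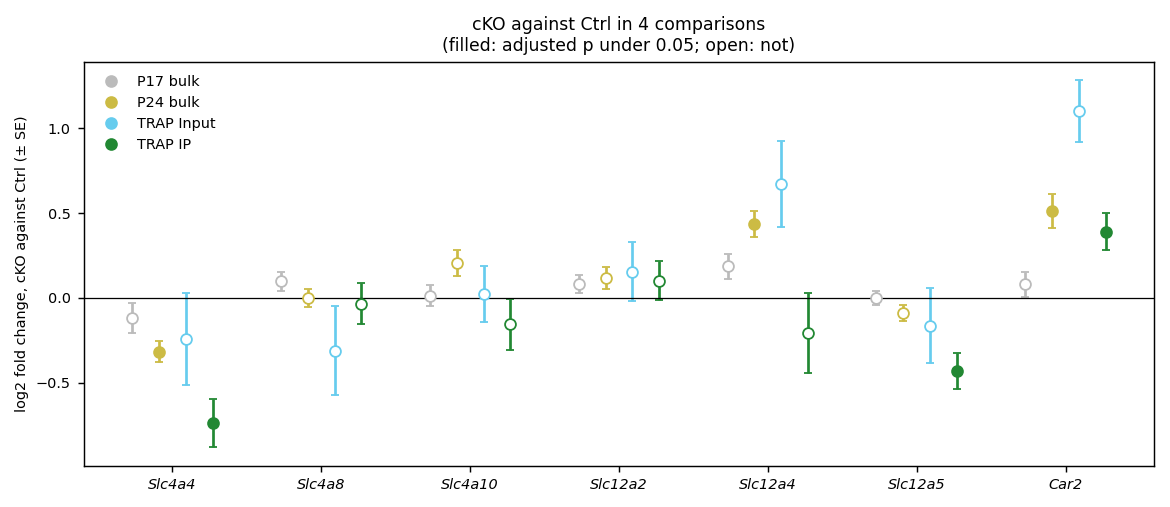
Log2 fold change of cKO against Ctrl (± SE) for each gene in P17 bulk, P24 bulk, TRAP Input and TRAP IP libraries, with filled points for an adjusted p under 0.05 and open points otherwise. Slc4a4 and Car2 have filled points in P24 bulk and IP, Slc12a4 in P24 bulk and Slc12a5 in IP.

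Slc4a4, the electrogenic sodium bicarbonate cotransporter of astrocytes, was downregulated in P24 cortex and in the ribosome-bound RNA. In P24 bulk its CPM were 174, 157, 154 and 168 in Ctrl mice and 132, 139, 135 and 118 in cKO mice. All 4 cKO mice lay below all 4 Ctrl mice, with a log2 fold change of -0.32 ± 0.06, adjusted p = 0.0226. The call was lost when any of 5 single libraries was left out (Ctrl replicates 1, 2 and 4, cKO replicates 3 and 4), at adjusted p values up to 0.0882, with log2 fold changes between -0.35 and -0.27. In bulk tissue, fewer cells of a type and less RNA per cell cannot be told apart.

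In the IP fraction, Slc4a4 had CPM of 182, 243 and 231 in Ctrl mice and 113, 123 and 154 in cKO mice. The groups did not overlap, the cKO mean was 0.596 times the Ctrl mean and the log2 fold change was -0.74 ± 0.14, adjusted p = 0.00508. Leaving out any single IP library kept the call, but it was lost when all 12 TRAP-Seq libraries were fitted together (adjusted p = 0.0709), a fit in which 1684 genes were called in place of 4782. Of the 8 astrocyte markers, 3 were called in the same IP comparison, the glutamate transporters Slc1a2 and Slc1a3 as downregulated (log2 fold changes -0.71 and -0.95) and Gfap as upregulated (0.76), and the median of the 8 was 0.06. In P24 bulk 6 of the 8 were called, with Slc1a2 (-0.41), Slc1a3 (-0.40) and S100b (-0.41) downregulated and Gfap (2.51), Aqp4 (1.247) and Aldh1l1 (1.18) upregulated. Whether the markers have a part in the values of Slc4a4 was not tested.

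At P17 the Slc4a4 CPM were 176, 172, 149 and 149 in Ctrl and 156, 168, 138 and 134 in cKO mice. The ranges overlap, while the cKO mouse was the lower of each of the 4 same-numbered pairs. The log2 fold change was -0.12 ± 0.09, adjusted p = 1.000, or -0.12 ± 0.04 with the replicate number as a block (adjusted p = 0.466). In Input they were 35.1, 35.3 and 35.5 in Ctrl and 16.8, 37.4 and 35.2 in cKO mice. The low value belongs to cKO replicate 1, and without this library the Input log2 fold change went from -0.24 to 0.04.

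The neuronal bicarbonate carriers gave no call between genotypes. Slc4a8 had CPM of 151, 159, 155 and 142 in P24 Ctrl and 159, 156, 144 and 146 in P24 cKO cortex, a log2 fold change of -0.001 ± 0.05, adjusted p = 0.994. In Input its cKO values were 28.2, 60.0 and 52.4 against 57.9, 65.2 and 51.6 in Ctrl mice, so that cKO replicate 1 again stood low, and the Input log2 fold change of -0.31 ± 0.26 was -0.05 without this library. Its IP log2 fold change was -0.03 ± 0.12, adjusted p = 0.877.

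Slc4a10 had CPM of 160, 171, 160 and 161 in P24 Ctrl and 167, 194, 170 and 219 in P24 cKO cortex. Only Ctrl replicate 2 reached into the range of the cKO mice, and the log2 fold change was 0.21 ± 0.08, adjusted p = 0.279. In replicate order, the choroid plexus markers summed to 9.53, 402, 151 and 152 CPM in these Ctrl and 4.91, 69.1, 277 and 308 CPM in these cKO libraries. Their part in the values of Slc4a10 was not tested. In IP its values were 32.8, 29.8 and 27.8 in Ctrl and 32.8, 27.6 and 20.4 in cKO mice, with a log2 fold change of -0.16 ± 0.15, adjusted p = 0.517. At P17 the fold changes of Slc4a8 and Slc4a10 were 0.10 ± 0.06 and 0.01 ± 0.06.

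Slc12a4, a potassium-chloride cotransporter of wide expression, was upregulated in P24 cortex. Its CPM were 21.6, 21.7, 22.4 and 23.0 in Ctrl mice and 25.9, 30.0, 33.6 and 30.6 in cKO mice. All 4 cKO mice lay above the Ctrl mice, which were within a narrow range, and the log2 fold change was 0.44 ± 0.07, adjusted p = 0.0107. This was the only member call in P24 bulk that held under all 16 alternatives, with adjusted p values up to 0.0476. At P17 the values were 23.4, 25.6, 21.1 and 24.9 in Ctrl and 25.7, 27.5, 28.6 and 26.4 in cKO mice. The P17 groups did not overlap either, by a narrow margin, and the log2 fold change was 0.19 ± 0.07 (adjusted p = 1.00).

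In the TRAP fractions Slc12a4 was not called. Its IP values were 20.7, 30.3 and 23.4 CPM in Ctrl and 14.2, 19.5 and 30.1 in cKO mice, which overlap, with a log2 fold change of -0.21 ± 0.23, adjusted p = 0.585. Its Input values were 4.30, 7.84 and 5.03 CPM in Ctrl and 7.69, 10.5 and 9.07 in cKO mice, and the log2 fold change was 0.67 ± 0.25, adjusted p = 0.812. Ctrl replicate 2 lay above the lowest cKO mouse in Input.

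Slc12a5, the neuronal chloride extruder KCC2, was downregulated in IP and not called in whole cortex. Its IP values were 32.6, 32.1 and 32.7 CPM in Ctrl mice and 27.2, 23.1 and 21.6 in cKO mice. The Ctrl mice were nearly identical, every cKO mouse was below them and the log2 fold change was -0.43 ± 0.11, adjusted p = 0.0174. Leaving out any Ctrl library or that of cKO replicate 2 lost the call (adjusted p up to 0.0787), and so did the fit of all TRAP-Seq libraries (adjusted p = 0.182). The IP level was itself 0.107 of the Input level in Ctrl mice, and the synaptic vesicle gene Syp, a neuronal marker, had an IP log2 fold change of -0.43 and was called, as 1 of 8 neuronal markers. The summed level of the 8 neuronal markers in IP was between 2411 and 2933 CPM in Ctrl and between 2471 and 2545 CPM in cKO mice, with none at 0, and the part of neuronal RNA in the value of Slc12a5 was not tested. In P24 bulk Slc12a5 had 570, 568, 600 and 566 CPM in Ctrl and 588, 522, 538 and 518 in cKO mice, with a log2 fold change of -0.09 ± 0.05, adjusted p = 0.471.

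Slc12a2 (ENSMUSG00000024597, on chromosome 18), the chloride loader NKCC1, was called in no comparison of genotypes. In P24 bulk its CPM were 62.0, 71.3, 61.8 and 65.8 in Ctrl and 68.8, 66.6, 77.2 and 70.6 in cKO mice. The log2 fold changes were 0.08 ± 0.05 at P17, 0.12 ± 0.06 at P24, 0.15 ± 0.17 in Input and 0.10 ± 0.12 in IP, all above 0, and the IP value was -0.01 when libraries were scaled by their size alone.

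The ratio of Slc12a5 to Slc12a2 counts sets the message of the chloride extruder against that of the loader within each library and needs no scaling between libraries. It is a ratio of read counts, not of protein or transport, and is not per length. The part of cell content in this ratio was not tested. In P24 bulk the log2 ratio was 3.20, 2.99, 3.28 and 3.10 in Ctrl mice and 3.10, 2.97, 2.80 and 2.87 in cKO mice, a difference of -0.21 (exact two-sided permutation test, p = 0.0571, n = 4 each). The groups overlap. At P17 it was 3.19, 3.17, 3.26 and 3.30 in Ctrl and 3.09, 3.16, 3.25 and 3.10 in cKO mice, a difference of -0.08 (exact permutation p = 0.114, n = 4 each). The Benjamini-Hochberg adjusted p over the 4 comparisons of this ratio was at least 0.152.

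In the IP the log2 ratio was 1.26, 1.27 and 1.07 in Ctrl mice and 0.89, 0.64 and 0.45 in cKO mice, a difference of -0.54. Every cKO mouse lay below every Ctrl mouse, which with 3 mice against 3 gives the smallest exact permutation p this design allows, 0.1. In Input it was 3.44, 4.04 and 2.79 in Ctrl and 2.97, 3.38 and 2.96 in cKO mice, a difference of -0.32 within the spread of the mice (exact permutation p = 0.6). The ratio was lower in cKO mice in all 4 comparisons, none of which passed a threshold of 0.05.

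**Figure D4:**
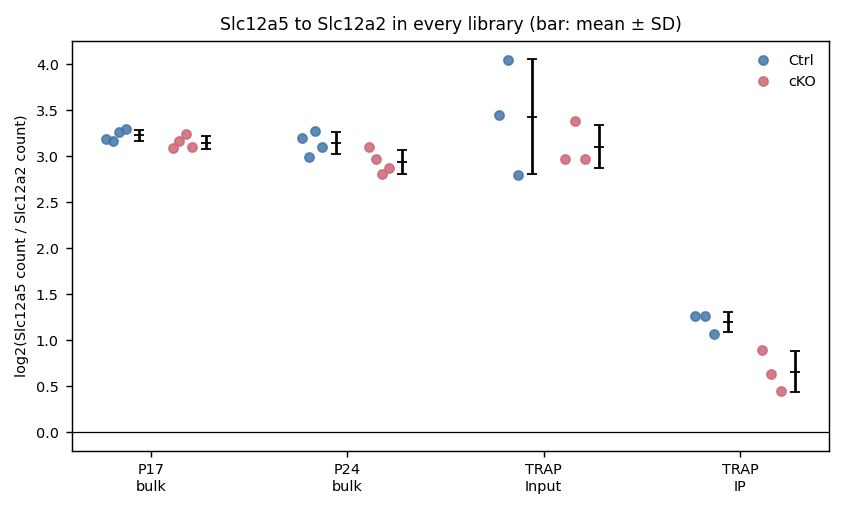
Log2 ratio of Slc12a5 to Slc12a2 counts in every library, by assay, with the mean ± SD of each group beside its points (n = 4 in bulk and 3 in TRAP). The ratio lies between 2.79 and 4.04 in bulk and Input libraries and between 0.45 and 1.27 in IP libraries, where the cKO mice are below the Ctrl mice.

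Car2, the cytosolic carbonic anhydrase II, was upregulated in P24 cortex and in IP. In P24 bulk its CPM were 67.9, 63.6, 65.3 and 76.6 in Ctrl and 76.2, 108, 101 and 105 in cKO mice. The lowest cKO mouse, replicate 1, lay just under the highest Ctrl mouse and the other 3 above all Ctrl mice, with a log2 fold change of 0.51 ± 0.10, adjusted p = 0.0240. Without cKO replicate 1 it was 0.62 (adjusted p = 5.81e-05). Leaving out Ctrl replicate 1, 2 or 3 or cKO replicate 2, 3 or 4 lost the call, at adjusted p values up to 0.0953.

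In IP, Car2 had CPM of 675, 795 and 619 in Ctrl and 919, 953 and 852 in cKO mice. The groups did not overlap and the log2 fold change was 0.39 ± 0.11, adjusted p = 0.0291. The call was lost when libraries were scaled by size alone (0.28, adjusted p = 0.0914), in the fit of all TRAP-Seq libraries (adjusted p = 0.150) and when Ctrl replicate 1 or 3 or cKO replicate 2 was left out (adjusted p up to 0.112). In Input, Car2 had 57.1, 69.2 and 62.3 CPM in Ctrl and 167, 120 and 117 in cKO mice, again without overlap. Its Input log2 fold change of 1.10 ± 0.18 was the largest of any member between genotypes but was not called (adjusted p = 0.115). It was called without cKO replicate 1, the highest library, at 0.92 (adjusted p = 0.00751), and by DESeq2 (adjusted p = 5.81e-05). At P17 Car2 had 57.8, 60.2, 65.6 and 58.3 CPM in Ctrl and 56.2, 62.8, 69.7 and 66.6 in cKO mice, which overlap, and a log2 fold change of 0.08 ± 0.07, adjusted p = 1.000.

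Other cells that can hold Car2 message were followed through their markers. None of the 8 oligodendrocyte markers was called between genotypes in any assay, and their summed level in P24 bulk was between 3901 and 5158 CPM in Ctrl and between 4581 and 5434 CPM in cKO mice. In IP this sum was between 1698 and 2467 CPM in Ctrl and between 1566 and 1913 CPM in cKO mice, and 6 of the 8 were lower in IP than in Input of Ctrl mice. The 5 choroid plexus markers summed to between 9.53 and 402 CPM in P24 bulk Ctrl and between 4.91 and 308 CPM in P24 bulk cKO libraries. In Input they summed to between 8.37 and 12.5 CPM in Ctrl and between 11.1 and 18.7 CPM in cKO mice, and Ttr among them had an Input log2 fold change of 1.53 ± 0.38 that was not called (adjusted p = 0.481). The 5 erythroid markers summed to between 46.6 and 106 CPM in IP of Ctrl and between 62.0 and 140 CPM in IP of cKO mice, with none called. In Input the erythroid sum was between 171 and 261 CPM in Ctrl mice and 766, 193 and 144 CPM in the 3 cKO mice, and cKO replicate 1, the highest of them, was also the highest in Car2. The summed astrocyte markers in Input were between 968 and 1107 CPM in Ctrl and between 1508 and 1976 CPM in cKO mice, without overlap. No marker of these lists was at 0 in all libraries of a group. The choroid plexus marker Kcne2 had at most 3 counts in Input and IP and was at 0 in single libraries of both. Of the 5 choroid plexus markers, 3 passed the filter on low counts in Input and in IP. The part of the markers in the values of Car2 was not tested.

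The age-by-genotype interaction asks whether the cKO effect differed between P17 and P24 bulk cortex. None of the 7 genes was called by edgeR's quasi-likelihood test, DESeq2 or the likelihood ratio test, against 0.0470% of the 23395 genes tested by the first. An unadjusted p under 0.05 was reached by 2 of the 7, beside 1479 of all genes tested. Car2 came nearest, with a log2 difference of 0.43 ± 0.14 (adjusted p = 0.541), followed by Slc12a4 at 0.25 ± 0.11 (adjusted p = 0.744) and Slc4a4 at -0.20 ± 0.11 (adjusted p = 0.835). Car2 was called without the P24 library of cKO replicate 1 (0.53, adjusted p = 0.0207). The calls at P24 and their absence at P17 are therefore not shown to differ.

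The wider families were read from lists of 7 other SLC4 genes, 6 other SLC12 genes, 15 other carbonic anhydrases, 9 sodium-proton exchangers, 20 chloride channels and SLC26 exchangers, and 10 kinases and partners that act on the cotransporters. None of their tested genes was called in P24 bulk (56 tested), P17 bulk (54 tested) or Input (55 tested), nor in either interaction (57 and 56 tested). At an unadjusted p under 0.05 there were 9 in P24 bulk, 1 in P17 bulk, 3 in Input and 3 and 6 in the interactions of age and of fraction with genotype. Over all genes tested the numbers were, in the same order, 2958 of 22495, 847 of 21201, 960 of 23828, 1479 of 23395 and 2252 of 25768. DESeq2 called Ahcyl1 in P24 bulk and Car8 in Input, and the likelihood ratio test called Slc12a7 and Car8 in P24 bulk and Car5b and Car8 in Input. In IP, 10 of the 53 tested were called, 5 in each direction, beside 20.0% of all genes.

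**Figure D5:**
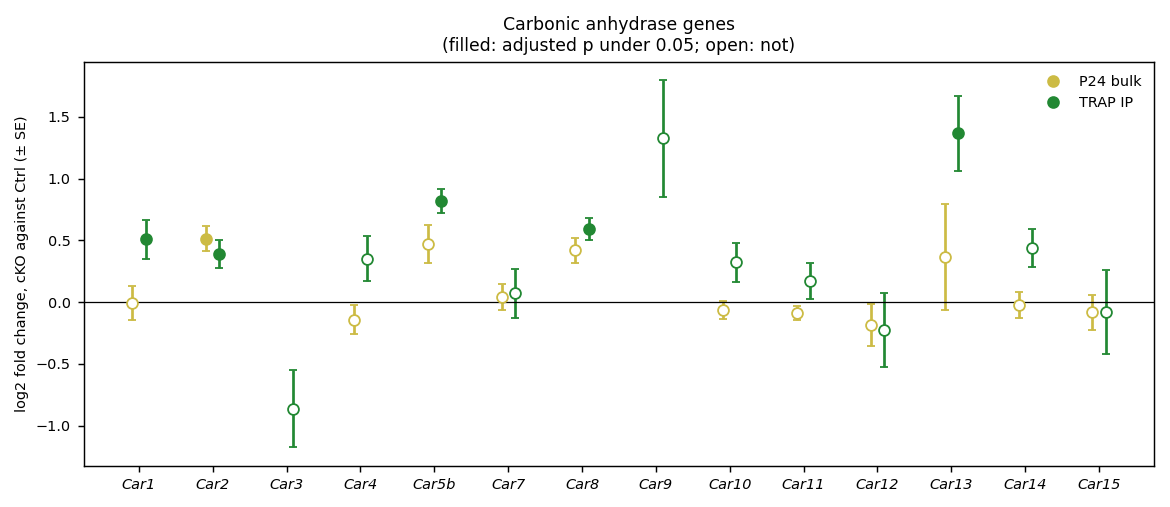
Log2 fold change of cKO against Ctrl (± SE) for Car2 and the other carbonic anhydrase genes tested in P24 bulk and TRAP IP libraries, with filled points for an adjusted p under 0.05. Car1, Car2, Car5b, Car8 and Car13 have filled points above 0 in IP, and in P24 bulk Car2 alone is filled.

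Of the other carbonic anhydrases, 4 of 13 tested were upregulated in IP and none was downregulated, beside 11.6% of all genes called as higher and 8.42% as lower. The log2 fold changes of the 13 lay between -0.86, in a gene not called, and 1.37. Their median was 0.35, beside -0.01 over all genes. Car5b, a mitochondrial isoform, had between 24.2 and 26.5 CPM in Ctrl and between 42.4 and 46.5 in cKO mice, with a log2 fold change of 0.82 ± 0.09, adjusted p = 0.000387. Car8, an isoform without catalytic activity, had between 78.1 and 87.3 CPM in Ctrl and between 121 and 126 in cKO mice, with a log2 fold change of 0.59 ± 0.09, adjusted p = 0.00159. Like Car2, these genes were higher in IP than in Input of Ctrl mice, at 3.23 ± 0.19 and 3.94 ± 0.14. Their P24 bulk log2 fold changes were 0.47 ± 0.15 and 0.42 ± 0.10, not called. Car1, the erythroid isoform, was called at a low level, between 3.62 and 4.74 CPM in Ctrl and between 5.58 and 5.89 in cKO mice (0.51 ± 0.16, adjusted p = 0.0439). The remaining call, Car13, is outside the rule for named genes for its level and was added after its values were seen, at between 0.377 and 0.507 CPM in Ctrl and between 0.969 and 1.32 in cKO mice. DESeq2 called neither Car1 nor Car13, and the likelihood ratio test called Car9 as well. Car13, Car1, Car3 and Car2 are neighbours within chr3:14641727-14900770.

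Among partners of the cotransporters, 2 of 10 were called in IP, which equals the 20.0% called among all genes, and both were downregulated. Ahcyl1 encodes IRBIT, known to bind and activate the Slc4a4 product, and had between 591 and 708 CPM in Ctrl and between 313 and 364 in cKO mice, with a log2 fold change of -0.89 ± 0.11, adjusted p = 0.000497. It was enriched in IP over Input of Ctrl mice (1.19 ± 0.10) and not called in P24 bulk (-0.18 ± 0.06, adjusted p = 0.163). Wnk2, a kinase of the family that controls SLC12 cotransporters, had between 57.4 and 83.8 CPM in Ctrl and between 27.6 and 41.5 in cKO mice, with a log2 fold change of -1.02 ± 0.17, adjusted p = 0.00222, and was depleted in IP over Input of Ctrl mice (-1.37 ± 0.14).

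Single genes were called in IP in the other lists. Slc4a3, an anion exchanger of neurons, was downregulated (-0.45 ± 0.14, adjusted p = 0.0386) and was called as depleted in IP over Input of both genotypes. Also downregulated were Slc12a9 (-0.93 ± 0.26, adjusted p = 0.0283), an SLC12 member of little known transport, and the anion exchanger Slc26a6 (-0.56 ± 0.15, adjusted p = 0.0223). Slc9a7, a sodium-proton exchanger of the trans-Golgi network, was upregulated (0.73 ± 0.16, adjusted p = 0.00867).

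The genes with the profile most like each member were sought among 9749 protein-coding genes over the means of the 8 groups, centred within each table, by the root mean square difference on the log2 scale. Nearest to Slc4a4 were Prdm16 (0.0452), Slc1a2 (0.0453) and Lix1 (0.0672). Slc12a2 was nearest to Cldn11 (0.0115), Itgad (0.0322) and Cers4 (0.0379), and Slc12a5 to Nacad (0.0490), Cx3cl1 (0.0522) and Syn1 (0.0561). For Slc4a8 the nearest were Trio, Rims1 and Brsk2 (0.0265 to 0.0322), and for Slc4a10 Arhgef4, Sh3gl3 and Aplp1 (0.0359 to 0.0372). Car2 had Nfe2l2 at 0.0647, followed by Slco1c1 (0.102) and Fermt2 (0.110). Slc12a4 had no gene nearer than Ptprz1 at 0.105, followed by Itgb5 (0.109) and Retsat (0.115). Likeness over 8 means is dominated by the step between IP and Input and is a description.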

How the data were processed

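Per the labels and the study's methods, RNA was primed with oligo-dT in bulk, purified with oligo-dT beads for TRAP-Seq, and sequenced on an Illumina HiSeq instrument. The authors mapped reads with STAR to mm10 and deposited raw counts for each Ensembl gene as 1 table for each experiment, without normalization. The counting tool and its strand setting are not given in the sources used here. The bulk tables name the age in the table's name only.

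Groups came from genotype, age and fraction. The gene targeted in the cKO mice is not reported here. GENCODE release 21 (GRCm38) gave symbols and exonic lengths for 53237 of the 53342 identifiers. The 7 genes and the lists were chosen with earlier results of these data known. In R 4.3.3, edgeR 4.0.16 was used with TMM factors, filterByExpr (minimum count 10, total 15, proportion 70%) and the two-sided quasi-likelihood test on each table, and an adjusted p under 0.05 was the threshold. CPM used TMM factors over the whole table. An SE is the log2 fold change divided by the square root of the F statistic. The count ratio used a pseudocount of 0.5. The pipeline was tested on simulated data. Named genes were the 7 members, up to 3 genes per direction and list that were called in IP or P24 bulk with a mean log2 CPM no lower than 1, and the 3 genes most alike each member.

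A floor of 3 counts corresponded to 0.106 to 0.340 CPM, depending on the library. This floor covers counting error only. Between replicate libraries the chi-square of the counts was 2.79 to 89.8 times its degrees of freedom, above counting error. Alternatives were DESeq2 1.42.0, the likelihood ratio test, RLE factors, scaling by library size only, genes filtered at a total of 1 count or at 10 counts in each library, the replicate block, all libraries of an assay in 1 fit, and leaving out each library. Same-numbered cKO and Ctrl libraries deviated together at P17 (residual correlations from 0.161 to 0.339) but not in every pair at P24 (0.0358 to 0.198). IP and Input of the same number came from the same mouse.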

Additional observations from a re-analysis of the deposited data

Results flagged for a closer look

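Of 32 groups of 4 bulk libraries examined for a lone extreme, 7 genes and the Slc12a5 to Slc12a2 ratio in 4 groups each, 2 held one, where the 5% rate of the rule gives about 1.6 by chance. In P24 bulk Ctrl mice, replicate 3 had Slc12a5 at 599.7 CPM, above 566 to 570 CPM in the other 3. In the same group, replicate 2 had Slc4a10 at 170.9 CPM, above 160 to 161 CPM in the others, and it is this mouse that overlapped the cKO range. Its choroid plexus markers summed to 402 CPM, beside 9.53 to 152 CPM in the other Ctrl mice of this group. In replicate order, the cKO mice had Slc4a10 at 167, 194, 170 and 219 CPM with marker sums of 4.91, 69.1, 277 and 308 CPM. The part of choroid plexus RNA in the values of Slc4a10 was not tested.

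None of the 7 genes was called for a difference in its cKO effect between ages or between fractions by edgeR's interaction tests.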

How the results depend on the processing

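The 7 calls of IP against Input in both genotypes, and the absence of any call at P17 and in the fraction-by-genotype interaction, held under every alternative. In P24 bulk 3 genes were called under all settings that keep all libraries and 1 to 3 when a library was left out. In IP 3 were called, none in the fit of all TRAP-Seq libraries, and 1 to 3 when a library was left out. With libraries scaled by size alone, the IP call of Car2 was lost as well. In Input none was called, 1 (Car2) by DESeq2, the likelihood ratio test, without a filter beyond 1 count and in the fit of all TRAP-Seq libraries, and 0 to 1 when a library was left out. In the age-by-genotype interaction none was called, and 0 to 1 (Car2) when a library was left out. The cause was not tested, beyond the smaller number of samples when a library is left out.

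Log2 fold changes that turned in sign all belonged to genes not called in that comparison. With libraries scaled by size alone, Slc4a8 in P24 bulk was 0.0127, Slc12a2 in IP -0.0106 and Slc4a10 in Input -0.00508. When each library was left out in turn, the lowest and highest values were -0.0321 and 0.0214 for Slc4a8 in P24 bulk, -0.0182 and 0.0540 for Slc4a10 and -0.0212 and 0.0242 for Slc12a5 at P17. In IP they were -0.10 and 0.0306 for Slc4a8, -0.29 and 0.00662 for Slc4a10 and -0.55 and 0.0398 for Slc12a4. In Input they were -0.43 and 0.0407 for Slc4a4, -0.10 and 0.12 for Slc4a10 and -0.35 and 0.0427 for Slc12a5. For Slc12a2 they were -0.00699 and 0.0844 in the age and -0.23 and 0.0400 in the fraction interaction.

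Over all genes, 388 were called in P24 bulk against 598 by DESeq2, 619 by the likelihood ratio test and 618 without a filter, and 216 (without cKO replicate 2) to 950 (without cKO replicate 1) when a library was left out. The counts were 20 at P17 (18 to 109 over the other settings, 11 to 19 with a library left out) and 4782 in IP (1684 to 6735, and 2633 to 4810). They were 26 in Input (8 to 137, and 4 to 112), 11 for age by genotype (11 to 62, and 4 to 149) and 15 for fraction by genotype (6 to 284, and 3 to 432). With libraries scaled by size alone, the IP calls split into 2002 higher and 3529 lower, in place of 2772 and 2010, with a median log2 fold change of -0.13 over all genes. In the fraction interaction the split was then 5 and 7 in place of 10 and 5, with a median of -0.10. With the replicate number as a block, the members called were 3 in P24 bulk, 3 in IP, 7 and 7 for IP against Input and 0 in the others, the same counts as without it, and the genes called in P24 bulk were 410. Paired by replicate number, a sign-flip permutation test of the Slc12a5 to Slc12a2 ratio gave exact p values of 0.125 at P24 and at P17, 0.25 in IP and 0.5 in Input, of which all but the last are the smallest that so few pairs allow.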
